A study of Mus musculus with 3 samples.

Results

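Fluid secretion by the intestinal epithelium depends on chloride leaving the cell across the apical membrane, while potassium channels keep the membrane voltage that drives this exit. The 8 genes described here encode 4 chloride channels (Cftr, Clcn2, Ano1 and Best2) and 4 subunits of potassium channels (Kcnq1, Kcne3, Kcnn4 and Kcnma1). They were taken by gene symbol, as a set proposed with earlier results of these data known, and all 8 were found among 24346 genes. Their transcripts were measured by RNA sequencing in epithelium from 3 regions of the mouse gut, the large intestine and the lower and upper parts of the small intestine. Each region was represented by 1 library, so no difference below has a replicate check and none was tested.

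All 3 preparations were made in the same way, by shaking opened intestines in 5 mM EDTA at 37 °C for 20 min, with no sorting of cells described in the labels. The sources used here do not give genotype, age or number of animals. A strain entry stands on the upper small intestinal library alone and names the MC38 colorectal cancer model. Taken as true, it means that region and strain cannot be told apart wherever that library is used. The study concerns the ATP-hydrolysing ectoenzyme E-NTPD8 and inflammation of the colon, and no aim for these channel genes is stated.

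As background, CFTR is the apical channel opened by cAMP, cGMP and their kinases, and its loss in cystic fibrosis leaves the gut with too little fluid. ANO1 and other calcium-activated channels offer a second exit for anions, and bestrophin-2 has been linked to bicarbonate transport by goblet cells of the mouse colon. KCNQ1 with its subunit KCNE3 is the basolateral potassium channel that serves cAMP-driven secretion, and the channel encoded by Kcnn4 serves calcium-driven secretion. BK, the large-conductance channel whose pore is encoded by Kcnma1, lets potassium leave into the colonic lumen.

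Values are FPKM (fragments per kilobase of transcript, scaled to library size), and 3 values in a row belong to large intestine, then lower, then upper small intestine. FPKM is a level per length, so levels of different genes can be set side by side. A difference is that of log2(FPKM + 1) and was taken as higher or lower only at a size of 1 or more, which is a doubling of FPKM + 1. Ratios of FPKM carry in brackets a 95% Clopper-Pearson interval from implied reads, which covers counting error alone, from the shortest annotated transcript unless the longest is named. By the spacing of low values, about 16.7, 21.9 and 14.6 reads of a 2 kb transcript gave 1 FPKM. Across the files, 11589, 11595 and 11491 genes reached 1 FPKM.

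In the large intestine 3 of the 8 channel genes were higher than in the lower small intestine (Best2, Ano1 and Kcnma1) and none was lower. Among all 12376 genes measured in that comparison 9.75% were higher and 10.5% lower. Against the upper small intestine 4 of the 8 were higher, the same 3 and Kcne3, and again none was lower, where 11.2% of 12350 measured genes were higher and 11.7% lower. The median difference of the 8 genes was 0.89 against the lower and 0.91 against the upper library, where the median of all measured genes was -4.5e-05 and 0.00057. These comparisons share the large intestinal library and are not independent. Between the upper and lower small intestine none of the 6 measured channel genes passed the rule, where 3.92% of 11941 measured genes were higher and 2.92% lower in the upper library.

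**Figure D1:**
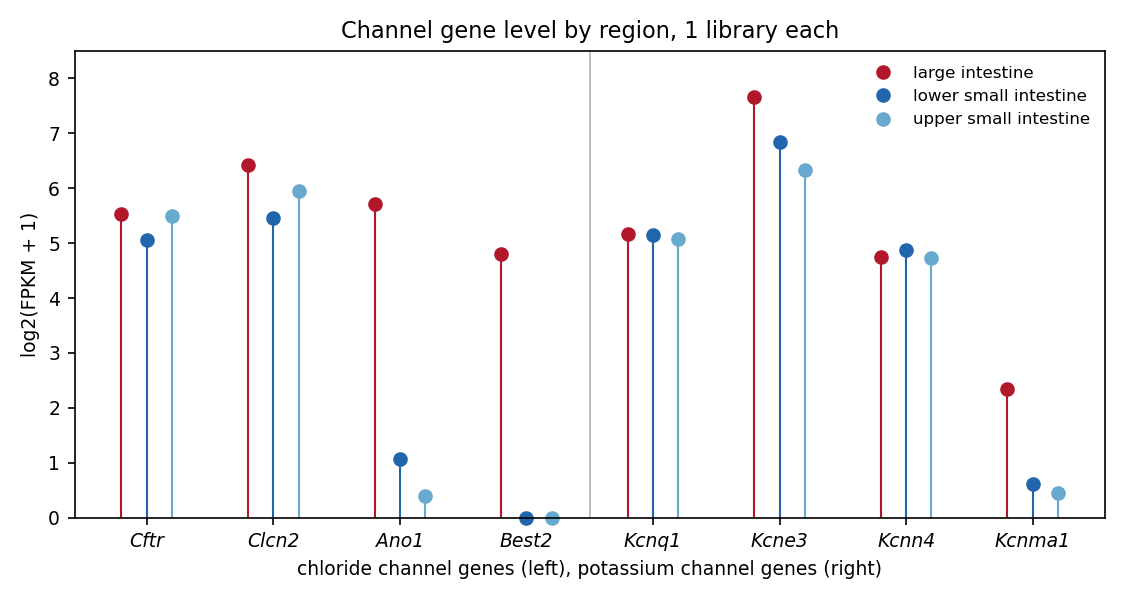
Level of each channel gene as log2(FPKM + 1), 1 point per library, with chloride channel genes to the left and potassium channel genes to the right of the line. Ano1, Best2 and Kcnma1 stand high in the large intestine alone, at 5.71, 4.79 and 2.34, whereas Kcnq1 and Kcnn4 keep nearly the same height in all 3 libraries.

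Sequence before the start site is shown for Cftr, Kcne3 and Ano1, as a gene that did not pass the rule of size in any comparison, one graded along the gut and one almost restricted to the large intestine. The windows come from RefSeq (GRCm38.p6) and read 5′ to 3′ on the gene's strand, with matches to the GC box GGGCGG in capitals. Cftr is chr6:18170437-18170686 (plus), Kcne3 is the downstream of 2 listed start sites at chr7:100178433-100178682 (plus), and Ano1 is chr7:144738593-144738823 (minus), ending 19 bases before the RefSeq start site. That site is internal to the Ano1 gene of GENCODE, whose 5′ end is at 144751974, and the bases shown lie in no annotated exon.
Cftr: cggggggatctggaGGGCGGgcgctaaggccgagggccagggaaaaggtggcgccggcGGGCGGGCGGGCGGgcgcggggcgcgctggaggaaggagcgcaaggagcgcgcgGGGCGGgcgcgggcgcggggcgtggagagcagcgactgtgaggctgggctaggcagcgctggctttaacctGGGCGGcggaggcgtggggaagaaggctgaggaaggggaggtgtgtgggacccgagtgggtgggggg
Kcne3: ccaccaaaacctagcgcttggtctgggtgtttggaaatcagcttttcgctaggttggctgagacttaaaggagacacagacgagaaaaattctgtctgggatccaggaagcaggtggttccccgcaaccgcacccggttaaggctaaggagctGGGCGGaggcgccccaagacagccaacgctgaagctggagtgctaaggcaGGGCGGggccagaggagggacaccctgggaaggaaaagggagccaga
Ano1: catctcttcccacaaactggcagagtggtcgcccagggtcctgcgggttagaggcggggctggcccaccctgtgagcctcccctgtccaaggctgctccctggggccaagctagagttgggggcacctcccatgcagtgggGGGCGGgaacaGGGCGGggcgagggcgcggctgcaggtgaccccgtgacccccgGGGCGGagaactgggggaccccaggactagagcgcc

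The GC box was counted on both strands and matches may overlap. It occurred 6 times in the window of Cftr, 2 times in that of Kcne3 and 3 times in that of Ano1, and 32.7% of the 32851 RefSeq windows of 250 bases hold it. GC content was 76.4% for Cftr, 58.0% for Kcne3 and 71.0% for Ano1. The windows of 6 members in the table (Kcne3 with both sites) were also searched on both strands for TTTAT, the core bound by CDX factors, held by 37.3% of all windows. Of these windows, those of Kcnma1 and Clcn2 lie wholly in annotated GENCODE exons. That of the upstream Kcne3 site does so in 114 of 250 bases, and that of Ano1, searched up to its RefSeq start site, in 19. These are thus not purely upstream sequence. None of the windows contained TTTAT, nor TATAAA (12.4% of all windows, and able to overlap TTTAT through its reverse) nor the cAMP response element TGACGTCA (1.55%). These counts describe letters in these windows and nothing about binding. Best2 and Kcnq1 have no entry there.

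Among the chloride channels, Cftr (chromosome 6, 18170687 to 18322768, plus strand, mm10) was at 45.4, 32.1 and 44.1 FPKM. The large and upper libraries were the high ones and the lower library the low one. The large to upper ratio was 1.03 (0.874 to 1.22), so a difference between them was not detectable at this depth on the deposited scale, while the large to lower ratio was 1.42 (1.21 to 1.67) and the upper to lower ratio 1.38 (1.16 to 1.63). None of these reached the rule of size. The large to upper difference of 0.04 depended on the scale and was 0.44 with libraries rescaled to the same sum. Cftr stood above 84.2%, 77.2% and 82.0% of the genes at 1 FPKM or more in its library.

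Clcn2 (chromosome 16, 20702964 to 20717746, minus strand) encodes ClC-2, a chloride channel opened by hyperpolarization that is found basolaterally in colonic surface cells. Its level was the highest of the 4 chloride channel genes in every library, at 84.6, 42.7 and 60.4 FPKM. The large library was above the upper by a ratio of 1.40 (1.201 to 1.64), and the upper above the lower by 1.41 (1.19 to 1.68), each beyond counting error. Its large to lower difference of 0.97 fell just short of the rule and was 1.28 when the libraries were rescaled to the same sum, which also moved the large to upper difference from 0.48 to 0.88. With libraries rescaled to the same upper quartile the large to lower difference was 1.003, just past the rule. Exons of Polr2h, at 33.9, 40.1 and 33.6 FPKM, overlap Clcn2 on the other strand. No source used here says whether counting used strand, so reads in the overlap cannot be assigned to 1 gene.

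Ano1 (chromosome 7, 144588549 to 144751974, minus strand), which encodes the calcium-activated chloride channel TMEM16A, was at 51.5 FPKM in the large intestine against 1.11 FPKM in the lower and 0.315 FPKM in the upper small intestine. Only the large library was high, where Ano1 exceeded Cftr by a ratio of 1.13, against ratios of 0.0346 in the lower and 0.00714 in the upper library. Its differences were 4.64 and 5.32, and 3.21 and 3.41 with a pseudocount of 5 FPKM. The ratio of large to lower was 46.4 (21.3 to 158). The large to upper ratio was 163 (30.02 to 6718, or 87.3 to 314 with the longest transcript), since the upper value rested on about 1 to 11 implied reads. Whether the lower exceeded the upper library depended on the transcript assumed, with an upper to lower ratio of 0.284 (0.00633 to 2.68, or 0.139 to 0.567 with the longest).

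Best2 (chromosome 8, 85007202 to 85014531, minus strand), which encodes bestrophin-2, was at 26.7 FPKM in the large intestinal library, with 0 listed for both parts of the small intestine. The large intestinal value stood for about 435 to 495 reads, and its difference was 4.79 in both comparisons. Against a listed 0 that size is set by the pseudocount, and it was 2.67 with 5 FPKM and 8.07 with 0.1 FPKM. No ratio is given against the listed 0, since an estimate that failed would also read 0. Of the other bestrophin genes, Best1 and Best3 were at most 0.058 FPKM in any library.

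The make-up of the transcripts of these 4 chloride channel genes, other anion channel genes left aside, thus differed between the regions. The 4 genes summed to 208 FPKM in the large intestine, of which Clcn2 was 40.6%, Ano1 24.7%, Cftr 21.8% and Best2 12.8%. In the lower small intestine they summed to 75.9 FPKM, with Clcn2 at 56.3%, Cftr at 42.3% and Ano1 at 1.46%. The upper small intestine resembled it, with a sum of 104.8 FPKM and shares of 57.6%, 42.1% and 0.300%. Ano1 and Best2 together account for most of the distance between the large intestinal sum and the others, as the stacked levels show.

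**Figure D2:**
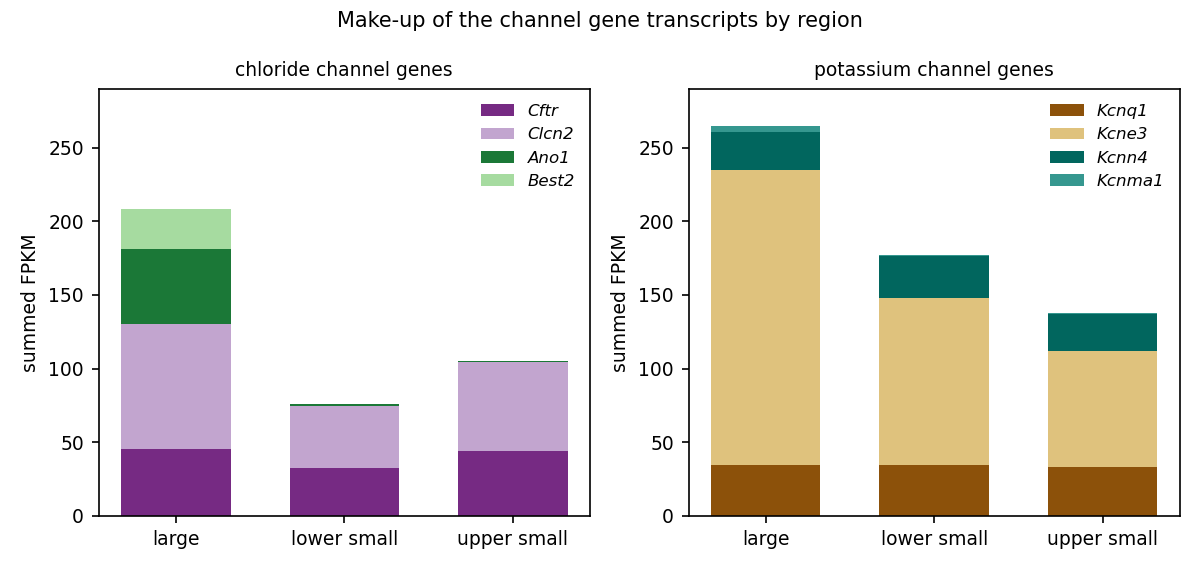
Summed FPKM of the 4 chloride channel genes (left) and the 4 potassium channel genes (right) in each region, 1 library per bar, stacked by gene. Ano1 and Best2 form 24.7% and 12.8% of the large intestinal chloride channel bar, and Kcne3 forms the largest part of each potassium channel bar.

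Among the potassium channels, Kcnq1, the pore-forming subunit of the cAMP-linked channel, was at 34.7, 34.3 and 32.8 FPKM. On the deposited scale it was thus even along the gut. The gene lies on chromosome 7 at 143106362 to 143427042 (plus strand). The 3 libraries differed by less than counting error, with a large to lower ratio of 1.01 (0.697 to 1.48), a large to upper ratio of 1.06 (0.691 to 1.60) and an upper to lower ratio of 0.954 (0.648 to 1.44). With libraries rescaled to the same sum, its difference was 0.31 in large against lower and 0.48 in large against upper. Kcnq1ot1, the antisense transcript at this imprinted locus, was between 0.271 and 0.333 FPKM.

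Kcne3 (chromosome 7, 100176502 to 100184869, plus strand), the subunit that holds KCNQ1 channels open, was the most abundant of the 8 genes in every library, at 200.5, 113.7 and 79.0 FPKM. Each step in the order large, lower, upper exceeded counting error. The large to lower ratio was 1.76 (1.56 to 1.99), the upper to lower ratio 0.694 (0.589 to 0.819) and the large to upper ratio 2.54 (2.17 to 2.97), and only the last passed the rule, with a difference of 1.33. The large to lower difference of 0.81 also passed, at 1.12, with libraries rescaled to the same sum, and at 1.09 when short RNA genes were left out of that sum. Because Kcnq1 was even on the deposited scale, the ratio of Kcne3 to Kcnq1 transcripts followed the same order, at 5.78, 3.31 and 2.41. Of the other family members listed, Kcne1, Kcne2 and Kcne4 were at most 0.807 FPKM.

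Kcnn4 (chromosome 7, 24370263 to 24386690, plus strand), which encodes the intermediate-conductance calcium-activated channel, was also nearly even on the deposited scale, at 25.8, 28.3 and 25.5 FPKM. The large to lower ratio was 0.910 (0.693 to 1.18) and the large to upper ratio 1.01 (0.745 to 1.36). With the longest transcript the interval of large to lower became 0.829 to 0.997. The upper to lower ratio was 0.901 (0.681 to 1.18, or 0.818 to 0.992 with the longest). The sign of its large to lower difference was not fixed, at -0.13 as deposited and 0.17 with the libraries rescaled to the same sum. That rescaling also took its large to upper difference from 0.01 to 0.41. T lymphocytes also use this channel. The 6 T cell markers summed to 8.39, 77.5 and 86.8 FPKM, and their part in the Kcnn4 values was not tested. The related genes Kcnn1 to Kcnn3 were at most 0.199 FPKM.

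Kcnma1 (chromosome 14, 23289431 to 24014491, minus strand), the pore-forming subunit of BK, was the least abundant of the 8 genes in the large intestine, at 4.07 FPKM against 0.535 and 0.362 FPKM. Its level there stood above 21.0% of the genes at 1 FPKM or more. The large library was the highest of the 3, with differences of 1.72 and 1.90. At this low level the pseudocount matters: the differences were 0.71 and 0.76 with 5 FPKM, which ended both calls, and 2.72 and 3.18 with 0.1 FPKM. A filter of 5 FPKM or a 4-fold rule ended them too. The large to lower ratio was 7.61 (1.85 to 35.2) and the large to upper ratio 11.3 (2.01 to 551). These intervals are wide because the shortest of 38 annotated transcripts, which run from 447 to 12094 nt, implies only about 15, 3 and 1 reads. With the longest transcript the intervals were 5.88 to 9.89 and 7.83 to 16.6. Its auxiliary beta subunits, Kcnmb1 to Kcnmb4, were at most 0.105 FPKM. By contrast Lrrc26, which encodes a BK gamma subunit that lets the channel open near resting voltage, was at 28.6, 13.5 and 11.3 FPKM, higher in the large intestine by 1.03 and 1.27. Its level exceeded that of Kcnma1 by a ratio of 7.02 in the large intestine and of 25.2 and 31.2 in the lower and upper small intestine.

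**Figure D3:**
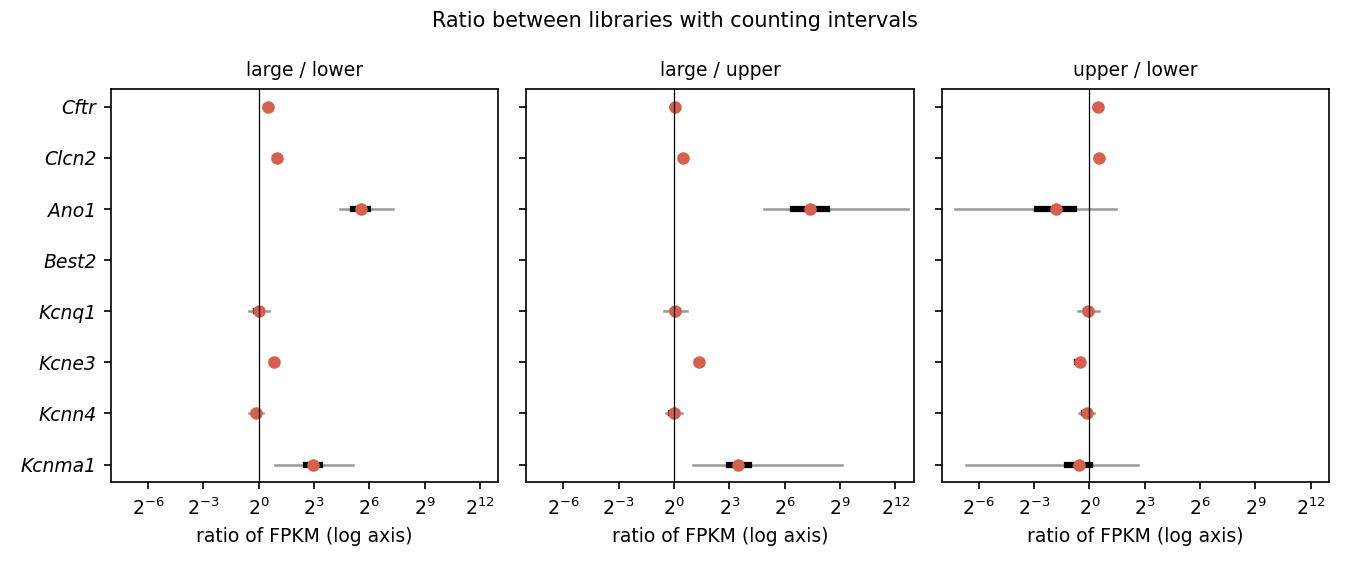
Ratio of FPKM between pairs of libraries for each channel gene on a log axis, with points for the deposited ratio, thick bars for 95% counting intervals from the longest transcript and thin bars for those from the shortest. Best2 has no point because it was listed at 0, and Ano1 and Kcnma1 lie at 46.4 and 7.61 in large over lower, while Kcnq1 and Kcnn4 lie close to 1 in all 3 panels.

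ANO1 and BK are also channels of interstitial cells of Cajal and of smooth muscle, and in bulk samples fewer cells of a type and less RNA per cell cannot be told apart. Of 7 smooth muscle markers 5 were near 0, with Myh11 at 0.017, 0.026 and 0 FPKM, Acta2 at 0, 0.107 and 0.106 FPKM, and Des, Cnn1 and Actg2 at most 0.152 FPKM. The level of Tagln, 7.83, 2.56 and 1.64 FPKM, was higher in the large intestine past the rule, with differences of 1.31 and 1.74, the direction of Ano1 and Kcnma1, and its part in their differences was not tested. Smtn was at 5.04, 6.85 and 4.96 FPKM, and the 7 markers summed to 12.95, 9.79 and 6.70 FPKM. Of the 3 markers listed for interstitial cells, 2 were higher in the large intestine past the rule in both comparisons, the direction of Ano1, and Etv1 was not. The 3 summed to 135, 7.27 and 3.94 FPKM, and most of the large intestinal sum was Thbs4. Thbs4 was at 117, 0.028 and 0.042 FPKM and Kit at 17.5, 6.74 and 3.51 FPKM, whereas Etv1 was between 0.386 and 0.517 FPKM. Kit is also a marker of secretory cells at the base of mouse colonic crypts. The part of such cells in the Ano1 and Kcnma1 values was not tested.

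Markers of the labelled epithelium were present in each library. The 5 colonocyte markers summed to 7770.2, 267 and 262 FPKM and the 6 small intestinal enterocyte markers to 309, 8321 and 19916 FPKM. Most of the 2 large intestinal sums was Car1, at 6414 FPKM, and Fabp2, at 287 FPKM. Ceacam20, a colonocyte marker of the list, was at 39.7, 56.1 and 31.1 FPKM and did not pass the rule. All 8 goblet cell markers were above 1 FPKM in every library and summed to 9728, 10108 and 7640.1 FPKM. The largest part of each sum was Zg16, at 3331, 3193 and 3017 FPKM. The list was divided, with 2 of 8 higher and 1 lower in the large intestine against the lower library, and 4 higher and none lower against the upper. Of all measured genes 9.75% were higher and 10.5% lower in the first of these comparisons, and 11.2% and 11.7% in the second. Muc2 was at 1128, 330 and 151 FPKM and Agr2 at 1660.4, 1082 and 494 FPKM. Clca1 was at 825, 415 and 198 FPKM and Spdef at 36.7, 17.7 and 9.08 FPKM. Each was highest in the large intestine, the direction of Best2. Tff3, at 992, 2215 and 1835 FPKM, and Fcgbp, at 421, 641 and 603 FPKM, were lowest there, and Spink4 was at 1335, 2215 and 1333 FPKM. Cell cycle markers summed to 88.3, 263 and 214 FPKM, lowest in the library where Ano1, Best2 and Kcnma1 were highest. The part of goblet cells or of cycling cells in the channel values was not tested.

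The other genes of the secretion machinery were then read by the same rule. Of 128 such genes in the files, 85 were measured in large against lower, with 15 at a higher and 14 at a lower level in the large intestine and a median difference of 0.01. Against the upper library 18 of 85 were higher and 16 lower, with a median of -0.03. In upper against lower 5 of 83 were higher and 6 lower. With libraries rescaled to the same sum the split was 21 higher and 12 lower against the lower library, and 24 higher and 12 lower against the upper, so its balance depended on the scale. As deposited, 9.75% of all measured genes were higher and 10.5% lower in large against lower, and 11.2% and 11.7% in large against upper. In upper against lower the shares were 3.92% and 2.92%. The counts of each list below are to be read beside these shares.

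Basolateral loading brings chloride into the cell against its gradient. In each comparison 3 of 14 measured genes had their higher level in the large intestine and none had its lower level there. Wnk4, a kinase that controls chloride cotransporters, was at 17.1, 1.71 and 2.74 FPKM, Slc4a2, an anion exchanger, at 83.3, 31.0 and 36.1 FPKM, and Fxyd3, a regulator of the sodium pump, at 106, 48.7 and 34.2 FPKM. Slc12a2, the sodium-potassium-chloride cotransporter NKCC1 and main loading route, was at 99.3, 53.3 and 58.8 FPKM and did not pass the rule, with differences of 0.88 and 0.75. It is named here although it lies outside the rule for named genes, because CFTR secretion depends on it. The ratio of Slc12a2 to Cftr was 2.19, 1.66 and 1.33.

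The list of apical exchange holds 8 genes, of which 5 were measured. Of these the large intestine had 3 at a higher and 1 at a lower level relative to the lower library, and 2 and 1 relative to the upper. Slc26a3, the chloride-bicarbonate exchanger of chloride absorption, was at 472, 48.7 and 72.7 FPKM, and Slc26a6, a related exchanger, ran the other way at 1.08, 56.8 and 108 FPKM. The sodium-proton exchanger Slc9a3 was at 58.7, 8.32 and 34.1 FPKM.

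Among other anion channels and their modulators, large intestinal levels passed the rule as lower for 7 of 20 genes and as higher for 1 when set against the lower library. Set against the upper library they did so for 6 and 2 of 21. Medians were -0.36 and -0.31. Ano6, a scramblase and channel related to Ano1, had the opposite pattern to it, at 6.12, 69.4 and 129 FPKM. Ano2 to Ano5 were at most 0.841 FPKM. Clca4b, of a family of modulators of calcium-activated chloride currents, was at 1.60, 492 and 373 FPKM, and Clca1, a goblet cell product of that family, at 825, 415 and 198 FPKM. Among subunits of the volume-regulated anion channel, Lrrc8e was at 7.34, 0.343 and 0.068 FPKM and Lrrc8b at 4.35, 10.8 and 20.4 FPKM.

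Of 26 other potassium channel genes and subunits, 21 were below 1 FPKM in every library and 5 were measured. Relative to the lower library the large intestine had 1 at a higher and 1 at a lower level, and relative to the upper library 3 and 1. Kcnj13, an inward rectifier, was at 0.382, 8.84 and 1.87 FPKM, with the lower small intestinal library high. The 2-pore-domain genes Kcnk6 and Kcnk1 were at 13.9, 9.09 and 3.39 FPKM and at 36.1, 23.0 and 16.4 FPKM.

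Genes of the cAMP, cGMP and calcium signals that open these channels were split. Of 25 measured against the lower library 6 were higher and 2 lower, and of 24 against the upper library 7 were higher and 4 lower. Stim1, the sensor that starts calcium entry when stores are empty, was at 42.2, 9.78 and 10.5 FPKM, and Prkacb, a catalytic subunit of protein kinase A, at 28.6, 7.42 and 6.998 FPKM. The peptides that raise cGMP crossed over, with Guca2a (guanylin) at 2063, 806 and 249 FPKM and Guca2b (uroguanylin) at 26.7, 522 and 1653 FPKM. Prkg2, the cGMP-dependent kinase that phosphorylates CFTR, was at 10.6, 11.5 and 36.5 FPKM and thus highest in the upper library.

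Scaffold and trafficking genes of CFTR included 1 higher and 3 lower of 16 in large against lower, and 1 higher and 4 lower of 16 in large against upper. Pdzk1 was at 3.63, 87.7 and 128 FPKM and Slc9a3r1, which encodes the scaffold NHERF1, at 164, 536 and 636 FPKM. Slc9a3r2, its relative NHERF2, was at 4.55, 1.31 and 0.985 FPKM. Cftr itself did not pass the rule between the same libraries, with differences of 0.49 and 0.04. With libraries rescaled to the same sum they were 0.79 and 0.44.

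**Figure D4:**
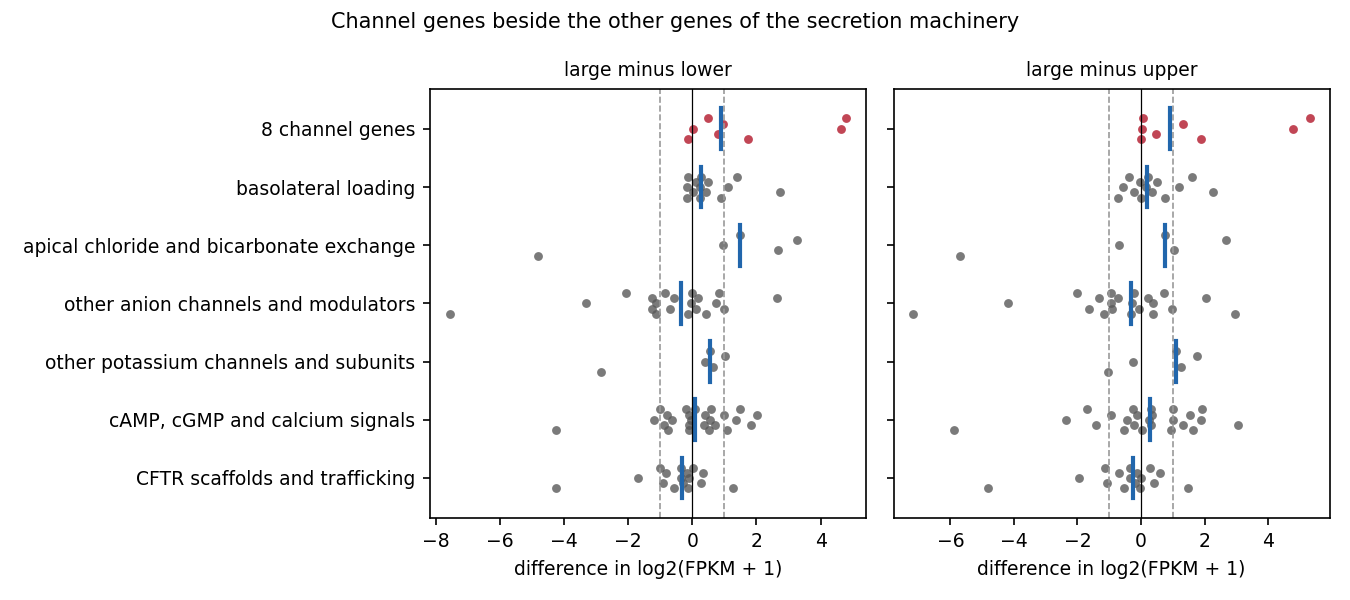
Difference in log2(FPKM + 1), large minus lower (left) and large minus upper small intestine (right), for each measured channel gene (red) and each measured gene of the 6 lists of secretion machinery (grey), with list medians as blue bars and the rule of size as dashed lines. The channel genes have medians of 0.89 and 0.91, with none past the rule on the low side, while other anion channels and modulators have medians of -0.36 and -0.31.

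The genes whose pattern over the 3 libraries was closest to each channel gene were found by the Euclidean distance between log2(FPKM + 1) values centred on each gene's mean, among 12479 genes. With 3 libraries a pattern is fixed loosely, so the number of genes within a distance of 0.2 is given. Ano1 had 0 such genes, the nearest being 8430408G22Rik (47.4, 1.37 and 0.340 FPKM, distance 0.2001) and Fhl1 (86.1, 1.83 and 1.15 FPKM, distance 0.243). Best2 had 2, Anxa3 at a distance of 0.130 and Nxpe4 at 0.170, the latter at 27.9, 0.057 and 0.212 FPKM. Kcnma1 had 90, led by 9230105E05Rik and Tnfaip8, and Kcne3 had 169, led by Cfap36 and Cnnm4, the latter at 95.6, 53.3 and 36.8 FPKM. Clcn2 had 172, led by Kifc2 and Coq10b, and Cftr 509, led by Rgl2 and Rbbp8. The even genes had many neighbours, 2599 for Kcnq1, led by Zdhhc18 and Dlg1, and 2349 for Kcnn4, led by Parn and Ssu72.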

How the data were processed

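Per the labels' protocols, RNA came from an RNeasy kit and libraries from a stranded mRNA kit. The deposited files give each gene 1 value per library, read here as FPKM because Cufflinks 2.2.1 is the only quantifier that the submitters' processing notes name, beside TopHat2 2.0.13, Bowtie2 2.2.3, SAMtools 0.1.19 and mm10. The file headers give no unit, and for annotation, filters, strand setting and scaling between libraries the answer is not given in the sources used here.

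Coordinates and transcript lengths came from GENCODE M21 (GRCm38, the assembly of mm10), which matched 23310 of 24346 gene names. A gene counted as measured when either library of a pair reached 1 FPKM. Differences used a pseudocount of 1 FPKM, which understates those of low genes. With 1 library per group no p-value or SD was computed.

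Among genes with a single annotated transcript (1500 nt or longer), the product of FPKM and length fell within 0.15 read of a multiple of a fitted step for 74.9%, 72.2% and 75.4% of 362, 406 and 353 genes (30% for a step fixed beforehand). Implied reads follow from that step and a transcript length. Without molecular identifiers, reads are not independent molecules.

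The members and all lists were chosen with earlier results of these data known. A potassium channel gene of the lists is not reported here. The rule for named genes took all 8 members, up to 6 genes of each machinery list past the rule of size by largest difference, up to 4 markers per list by level, and the 2 genes nearest in pattern. Whole families, Slc12a2, Polr2h, Kcnq1ot1 and further markers were named outside it, after their values were seen. Python 3.11.15, pandas 2.3.3, numpy 2.4.6, scipy 1.17.1 and matplotlib 3.10.9 were used, and the steps were tested on simulated data.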

Additional observations from a re-analysis of the deposited data

How the results depend on the processing

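Each count was recomputed under 9 alternatives of pseudocount, filter, scale and rule of size. Under all 9, Ano1 and Best2 passed the rule in the large intestine against either small intestinal library. Kcnma1 lost its place with a pseudocount of 5 FPKM, a filter of 5 FPKM or a 4-fold rule, and Kcne3 lost its place against the upper library with the 4-fold rule. In large against lower 5 channel genes passed, in place of 3, with libraries rescaled to the same sum (5 also without short RNA genes) and with a 1.5-fold rule, the added genes being Clcn2 and Kcne3. With libraries rescaled to the same upper quartile 4 passed, the added gene being Clcn2. In large against upper 2 passed, in place of 4, with a 4-fold rule. In upper against lower 1 passed, in place of 0, with a pseudocount of 0.1 FPKM and with the 1.5-fold rule, Ano1, lower in the upper library. These counts thus depended on the pseudocount, the filter, the scale and the rule of size. The machinery genes past the rule numbered 18 with a pseudocount of 5 FPKM, 45 with the 1.5-fold and 12 with the 4-fold rule in large against lower (29 as reported). In large against upper they numbered 22 with a pseudocount of 5 FPKM and 12 with the 4-fold rule (34 as reported), and in upper against lower 22 and 2 with the 1.5-fold and 4-fold rules (11 as reported).

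Rescaling to the same sum moved the median of all genes by 0.28 and 0.37 in the comparisons of the large with the lower and upper libraries. It moved the share of higher genes among those past the rule from 48.2% to 64.0% and from 49.0% to 69.0%. Of 120 differences of single channel genes under other pseudocounts and scales, 24 moved beyond the counting interval (or, for Best2, had none), and none past the rule changed sign. Low values limit what is said of Ano1 and Kcnma1 in small intestine, at about 1 to 5 implied reads by the shortest transcript. No paired analysis was possible because each group has 1 library.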
